A study of Arabidopsis thaliana with 121 samples.

Results

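The transposable elements (TEs) described here were silent in the Arabidopsis wild type (WT) and transcribed when both CDCA7 genes were lost. They were chosen from the 31-day-old leaf libraries (batch A, 39 libraries): a TE had to reach 10 or more estimated counts in 3 or more of those libraries, at most 3 counts in each of the 3 Col_0 libraries, and 4 or more counts in 2 or more of the 4 libraries of the cdca7ab_1 and cdca7ab_2 double mutants. The rule took 182 of the 970 TEs past the count filter, of 31188 TEs in the table. They made up 18.8% of the TEs past the filter and 28.1% of the 648 that were silent in the WT. The other 466 WT-silent TEs did not reach the threshold in the double mutants and served as the comparison set. All WT and double-mutant values of batch A are given as a description, because the rule read them.

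TEs are mobile or once mobile DNA elements that plants keep transcriptionally silent, largely through cytosine methylation. In Arabidopsis MET1 copies CG methylation after replication, CMT2, CMT3 and the RNA-directed pathway maintain methylation outside CG, and the nucleosome remodeller DDM1 opens packed chromatin to these enzymes. CDCA7 proteins carry a zinc finger that recognises hemi-methylated CG and work with remodellers of the DDM1 family, and Arabidopsis has a pair of them, CDCA7α and CDCA7β. The identifier of a TE gives its chromosome and its place in the numbering along it (AT5TE43665 is on chromosome 5). Families, coordinates and sequences of the TEs were not analysed here.

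All lines were in the Col-0 background and rosette leaves were sampled. Batch A libraries were each a pool of 3 plants, 31 days old: Col_0 (n = 3); the single mutants cdca7a_1 (n = 3; an insertion in the CDCA7α promoter with CDCA7α overexpressed), cdca7a_2 (n = 2; an insertion in the CDCA7α coding sequence), cdca7b_1 (n = 3) and cdca7b_2 (n = 2; both CRISPR alleles of CDCA7β); the double mutants cdca7ab_1 (n = 2; the cdca7a_2 insertion with a CRISPR deletion in CDCA7β) and cdca7ab_2 (n = 2; CRISPR insertions in both genes). The ddm1-2 mutant was sampled in its first homozygous generation (F2_ddm1, n = 2) and in later ones (ddm1_2_G2, n = 2; ddm1_2_G5, n = 3). It was combined with the cdca7a_1 insertion (ddm1_cdca7a_1, n = 2) and with the cdca7a_2 insertion (F2_ddm1_cdca7a_2, n = 2). CDCA7β was mutated in ddm1_cdca7b_1 and ddm1_cdca7b_2 (n = 3 each), and both genes in ddm1_cdca7ab_1 (n = 3) and ddm1_cdca7ab_2 (n = 2). These 4 lines carried CRISPR alleles of their own, made in ddm1-2 plants of generation 2, not the alleles of the like-named lines above. Per the paper they were used at homozygous ddm1-2 generation 6. Batch B libraries each came from a leaf of a single plant, 28 days old: WT (n = 5), cdca7_b (n = 6) and cdca7_a (n = 3). Another double mutant was cdca7_ab (n = 4; the cdca7a_2 insertion with a further CRISPR deletion in CDCA7β). The rest were labelled with a CDCA7α transgene. In the cdca7_ab background these were cdca7_ab_CDCA7 (n = 5), cdca7_ab_p6966 (n = 5), cdca7_ab_p6966_d4nt (n = 2) and cdca7_ab_p6966_d26nt (n = 7). Others were cdca7_ab_dCter (n = 7), cdca7_ab_dNter (n = 6), cdca7_ab_C183S_C209S (n = 7) and cdca7_ab_R35A_N42L (n = 6). Sister plants lacked the transgene (cdca7_ab_CDCA7_no_YFP, n = 2). In the cdca7_a background they were cdca7_a_CDCA7 (n = 3), cdca7_a_p6966 (n = 5), cdca7_a_p6966_d4nt (n = 4) and cdca7_a_p6966_d26nt (n = 5). Each transgenic plant was an individual T1 plant, so each is a separate insertion, and the constructs had been introduced before both genes were completely lost. A line is 1 or a few edited alleles, so line and genotype cannot be told apart.

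A library held 2087914 to 4439886 counts in batch A and 1194663 to 5206142 in batch B, with a plastid share of 5.55 to 43.9% and 4.39 to 22.9%. Summed over 4 leaf genes (RBCS1A, RCA, CA1, CAB1), the level lay between 6108 and 51408 CPM (counts scaled to the normalised library total) in batch A and between 6111 and 46839 in batch B. Of the markers of other organs, the flower and root genes stayed at or under 6.82 CPM in both batches. The pollen gene VGD1 ran from 1.05 to 15.3 CPM in batch A and from 2.81 to 94.3 CPM in batch B (median 19.0), and a pair of seed genes (CRA1, OLEO1) reached 1568 CPM in 1 library, cdca7_ab_C183S_C209S replicate 4. Their part in the TE values was not tested. The batches were normalised separately, so levels are compared only within a batch.

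As a group the 182 TEs were near 0 in the WT and on in every double-mutant pool. Their summed level was 25.9, 24.1 and 50.4 CPM in the 3 Col_0 pools. It was 970.1 and 933.5 CPM in cdca7ab_1 and 1271 and 985 CPM in cdca7ab_2. The double-mutant pools thus lay close to each other and far from every WT pool, a gap that the rule itself required of each TE. In the WT pools 61 to 110 of the TEs had at least 1 count and none had 4 or more, against 138, 162, 127 and 164 TEs with 4 or more in the double-mutant pools. The comparison set reached 15.9 to 45.0 CPM in the WT and 100.1 to 120.9 CPM in the double mutants.

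**Figure D1:**
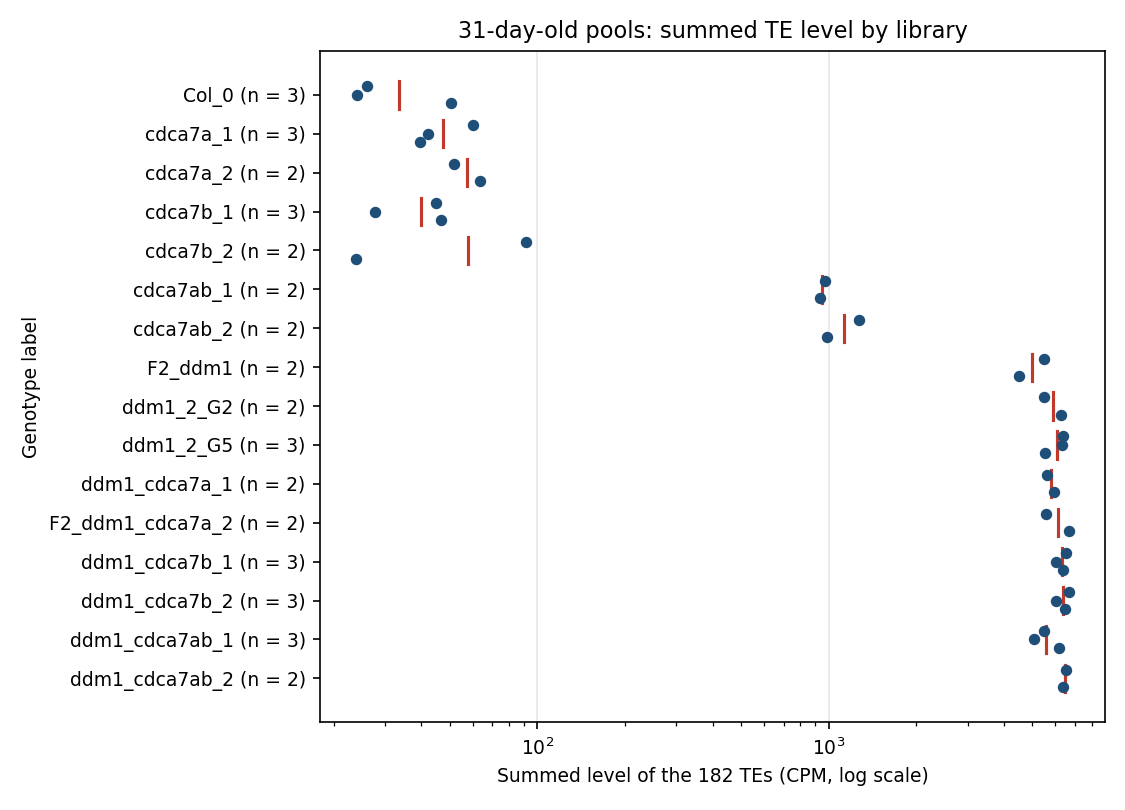
Summed level of the 182 TEs in each of the 39 pools of 31-day-old plants, by genotype label, in CPM on a log axis. Points are pools and the red bars are group means. The 4 double-mutant pools (933.5 to 1271 CPM) stand between the WT pools (24.1 to 50.4 CPM) and the ddm1 pools (4505 CPM and above).

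The thresholds passed through a continuum. The highest WT count of a member was 3.0, shared by 27 TEs such as AT1TE35305, while AT5TE37975 was left out at 3.006. The double-mutant count that ranked second was 4.0 for 20 members, such as AT1TE36570, and 3.837 for AT3TE58020, left out. AT1TE56345 only just passed the count filter, with exactly 10.0 in the lowest of the 3 libraries required, where 4 TEs such as AT2TE26875 had 9.0. Counts of a member summed over the 4 double-mutant libraries ran from 9 to 888 with a median of 35, so many members were called on by few reads.

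The transcription of the group was uneven. AT5TE43665 alone held 6.02% of the double-mutant counts and the 10 leading TEs held 32.3%. AT5TE43665 had 2, 2 and 3 counts in Col_0, 258 and 177 in cdca7ab_1, and 201 and 252 in cdca7ab_2. It ranked above every other member in mean level. Its double-mutant counts lay between the lowest and the highest of its ddm1 counts (155 to 484 over all ddm1 lines). These counts are not scaled to library size, so they do not place its level within the ddm1 range. AT5TE43315 had 2, 0 and 2 counts in Col_0, 115 and 131 in cdca7ab_1, and 174 and 187 in cdca7ab_2.

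AT5TE47200 gave 154 and 81 counts in cdca7ab_1 and 148 and 186 in cdca7ab_2 after 3, 0 and 0 in Col_0. AT3TE60460 gave 148, 154, 106 and 106 counts in the double-mutant libraries after 2, 0 and 2 in Col_0. Both lines were thus high at each of these leading TEs. AT1TE62470, with no count in any Col_0 pool, gave 98 and 258 counts in cdca7ab_1 and 82 and 53 in cdca7ab_2. AT3TE50940, AT2TE20940 and AT1TE45135, the remaining members of the leading 8, had between 42 and 125 counts in every double-mutant library and at most 3 in Col_0.

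Most of the TEs were on in both double mutants, which the rule went far to require. Of the 182, 172 reached 4 counts in a library of both lines, 6 only in cdca7ab_1 and 4 only in cdca7ab_2, and 89 did so in all 4 libraries. With 2 libraries per line, those 89 and the 49 that did so in exactly 3 libraries fall in both lines by construction. Both cdca7ab_2 libraries lay above both cdca7ab_1 libraries for 40 TEs, where 15.0% of all features tested were ordered that way, and the reverse held for 20 TEs, against 15.1% of all features. Across the TEs, levels on the log2(CPM + 0.5) scale correlated between cdca7ab_1 and cdca7ab_2 at r = 0.87 (rho = 0.79, n = 182 TEs, which share libraries and are not independent). Against the other double mutant, cdca7_ab of batch B, r was 0.84 (rho = 0.80).

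Few of the TEs were entirely without WT reads. Only 39 of the TEs had 0 counts in all 3 Col_0 pools. A count of 0 is not absence of transcript: in batch A, 3 counts correspond to 0.472 CPM in the deepest library and 1.67 CPM in the shallowest. The estimated counts of 134 TEs were not whole (tolerance 0.001) in some library, which happens where reads fit several copies and are shared out between them. In the median TE 35.3% of the nonzero values were not whole, so single copies of a repeated family are uncertain.

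The single mutants of batch A stayed near the WT. The summed level was 60.0, 42.3 and 39.6 CPM in cdca7a_1 and 51.6 and 63.3 CPM in cdca7a_2. It was 44.8, 27.8 and 46.6 CPM in cdca7b_1, and 91.6 and 23.8 CPM in cdca7b_2. In these cdca7b_2 pools the comparison set summed to 134.2 and 21.0 CPM. The pool that was high for the members was thus high for the comparison set too, above its double-mutant pools (100.1 to 120.9 CPM). The cdca7a_2 pools, 1 cdca7a_1 pool and 1 cdca7b_2 pool were above every Col_0 pool, whose members had been held at 3 counts by the rule, and the other cdca7b_2 pool was below them all. In the 10 single-mutant libraries 76 TEs reached 4 counts at least once, but none did so in every library of cdca7a_1, cdca7b_1 or cdca7b_2. In cdca7a_2, 44 TEs did so in either pool and 12 in both.

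The activity that single mutants did show lay in single pools for some TEs and in several pools for others. AT1TE62470 had 0, 17 and 0 counts in cdca7a_1, 0 and 26 in cdca7a_2, 18, 0 and 0 in cdca7b_1, and 0 and 0 in cdca7b_2. In each line with counts of this TE a single pool held them all. AT2TE16825 had 20 and 3 counts in cdca7b_2 and 0, 11 and 1 in cdca7b_1, with 2, 2 and 4 in cdca7a_1 and 5 and 6 in cdca7a_2. AT4TE09845 had 3, 3 and 11 counts in cdca7a_1 and 9 and 19 in cdca7a_2, against 2, 1 and 0 in Col_0. In cdca7b_1 it had 2, 0 and 3, and in cdca7b_2 2 and 2. AT1TE56345 had the most single-mutant counts of any member, 69, which lay in all 4 lines (8, 1, 10, 10, 12, 10, 7, 1, 1 and 9 in the order above), and it had no more in the double mutants (5, 10, 2 and 4). AT2TE18240 also had counts in all 4 lines, with 5, 2 and 6 in cdca7a_1 and 6 and 11 in cdca7a_2 against 0, 2 and 0 in Col_0. In cdca7b_1 it had 5, 1 and 2, and in cdca7b_2 2 and 3. Its double-mutant counts were 13, 25, 8 and 18. A pool of 3 plants with 1 active plant and an even low level in all plants cannot be told apart here.

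In ddm1 the same TEs were higher still. Their summed level was 5488 and 4505 CPM in F2_ddm1, 5481 and 6279 CPM in ddm1_2_G2, and 6356, 6307 and 5525 CPM in ddm1_2_G5. The means of cdca7ab_1 and cdca7ab_2 were 16.2% and 19.2% of the ddm1_2_G2 mean. On plain RPM (reads scaled to the library total), with no adjustment for library composition, they were 23.1% and 15.4%, and the order of the 2 lines turned. Plastid transcripts took 43.9% of the cdca7ab_2 replicate 1 library. Every ddm1_2_G2 library was above every double-mutant library for 156 of the 182 TEs, where 16.7% of all features tested were ordered that way, and below for 3. Against F2_ddm1 the numbers were 146 and 3 (17.8% of all features above), and against ddm1_2_G5 154 and 1 (9.99% above). The count filter read the ddm1 libraries too, and members with few double-mutant counts could pass it mainly through them. For such members a higher level in ddm1 was in part set by the filter.

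Nearly every member was also on in ddm1. At least 4 counts were present in every library for 165 TEs in F2_ddm1, 176 in ddm1_2_G2 and 178 in ddm1_2_G5. The comparison set summed to 3413 and 3909 CPM in ddm1_2_G2. Being low in the WT and in the double mutants, its TEs could pass the count filter mainly through the 22 libraries that carry ddm1, so a high level there was largely set by the filter. Members with few double-mutant counts could pass in the same way, so their being on in ddm1 was in part set by the filter. The median level in ddm1_2_G2 was 19.7 CPM over the 182 TEs and 4.07 CPM over the 466, and 70.3% against 22.5% exceeded 10 CPM. The part that this difference in level plays in which TEs reached the threshold was not tested.

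**Figure D2:**
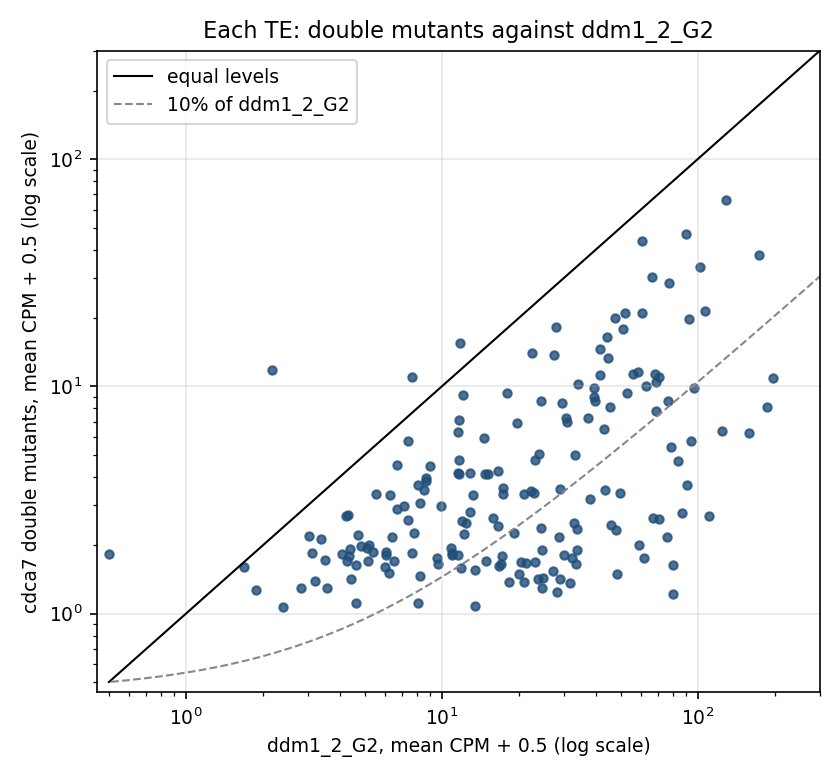
Each of the 182 TEs by its mean level in ddm1_2_G2 (x axis) and in the 4 double-mutant pools (y axis), both as CPM + 0.5 on log axes. The solid line marks equal levels, above which 4 TEs lie, and the dashed curve marks 10% of the ddm1_2_G2 level, below which 55 TEs lie.

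The share of the ddm1 level that a TE reached in the double mutants differed widely. Relative to ddm1_2_G2 the lowest was 0.902%, the quartiles were 6.97, 19.3 and 34.2%, and 55 TEs stayed under 10%. Across the TEs r between the double mutants and ddm1_2_G2 was 0.54 (rho = 0.50), against 0.85 (rho = 0.87) between F2_ddm1 and ddm1_2_G2 (n = 182 TEs on the log2(CPM + 0.5) scale).

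At the low end, AT3TE67635 had 3 and 4 counts in cdca7ab_1 and 0 and 5 in cdca7ab_2, but 353 and 217 in ddm1_2_G2 and 512 and 108 in F2_ddm1. AT2TE24525 had 1, 6, 6 and 1 counts in the double-mutant libraries and 304 and 257 in ddm1_2_G2. These TEs were strongly transcribed without DDM1 and barely above the threshold without CDCA7. AT5TE42135 (1.97%) and AT1TE47365 (2.04%) were the next lowest.

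At the other end 4 TEs were higher in the double mutants than in ddm1_2_G2. AT4TE19655 had 1 count in each Col_0 pool, 38 and 81 in cdca7ab_1 and 16 and 41 in cdca7ab_2. In the ddm1 mutant it had 10 and 4 counts in F2_ddm1, 8 and 4 in ddm1_2_G2, and 8, 11 and 23 in ddm1_2_G5. The double mutants thus reached 676% of its ddm1_2_G2 level, with no overlap in CPM with that line or F2_ddm1, whereas ddm1_2_G5 overlapped. AT2TE11890 reached 147% (37, 59, 21 and 40 counts in the double mutants against 31 and 20 in ddm1_2_G2), and AT3TE51660 132% (38, 43, 47 and 78 against 30 and 47). AT2TE16665 came next at 93.4%, with 2, 6, 2 and 7 counts against 3 and 5. For AT3TE59970 no ratio was computed, because both ddm1_2_G2 pools were at 0, with 25 and 0 counts in F2_ddm1, 50, 46 and 0 in ddm1_2_G5, and only 1, 4, 5 and 8 in the double mutants.

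Some TEs switched between pools of 1 genotype. Over the 22 libraries that carry ddm1, 5 members had 0 counts in a library and 50 or more in another, and 3 of them did so within a genotype. AT1TE47365 had 207 and 219 counts in ddm1_2_G2 and 217, 0 and 124 in ddm1_2_G5, but 0 and 0 in ddm1_cdca7a_1 and 190, 0 and 210 in ddm1_cdca7b_2. AT1TE48765 had 60 and 0 counts in ddm1_2_G2 and 46, 91 and 74 in ddm1_2_G5. All 5 had estimated counts that were not whole, as had many other members, so a copy that was silent and a copy whose reads were assigned elsewhere cannot be told apart.

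AT5TE20395 varied widely between lines and between pools. It had 325 and 219 counts in F2_ddm1, 0 and 24 in ddm1_2_G2 and 247, 171 and 91 in ddm1_2_G5, and 0 and 6 in ddm1_cdca7a_1. The counts were 958, 867 and 707 in ddm1_cdca7b_1, 779, 490 and 1508 in ddm1_cdca7ab_1 and 1121 and 1396 in ddm1_cdca7ab_2. Its double-mutant counts were 0, 5, 17 and 0. The member was chosen for its values after they were seen.

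The TEs were spread over all chromosomes. Chromosomes 1 to 5 held 25, 40, 46, 39 and 32 of them, or 13.7, 22.0, 25.3, 21.4 and 17.6%. The same chromosomes held 19.4, 20.5, 23.1, 18.4 and 18.7% of the 970 TEs past the filter. Of the TEs past the filter on each chromosome, 13.3, 20.1, 20.5, 21.9 and 17.7% were members. In the order of identifiers along each chromosome the median place was 42.9, 37.9, 58.2, 29.8 and 38.1% of the way, and for the comparison set 44.1, 35.7, 52.7, 34.0 and 40.1%. Both sets thus lay mostly in the inner part of the numbering. An identifier order is not a distance, and TE length was not considered.

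**Figure D3:**
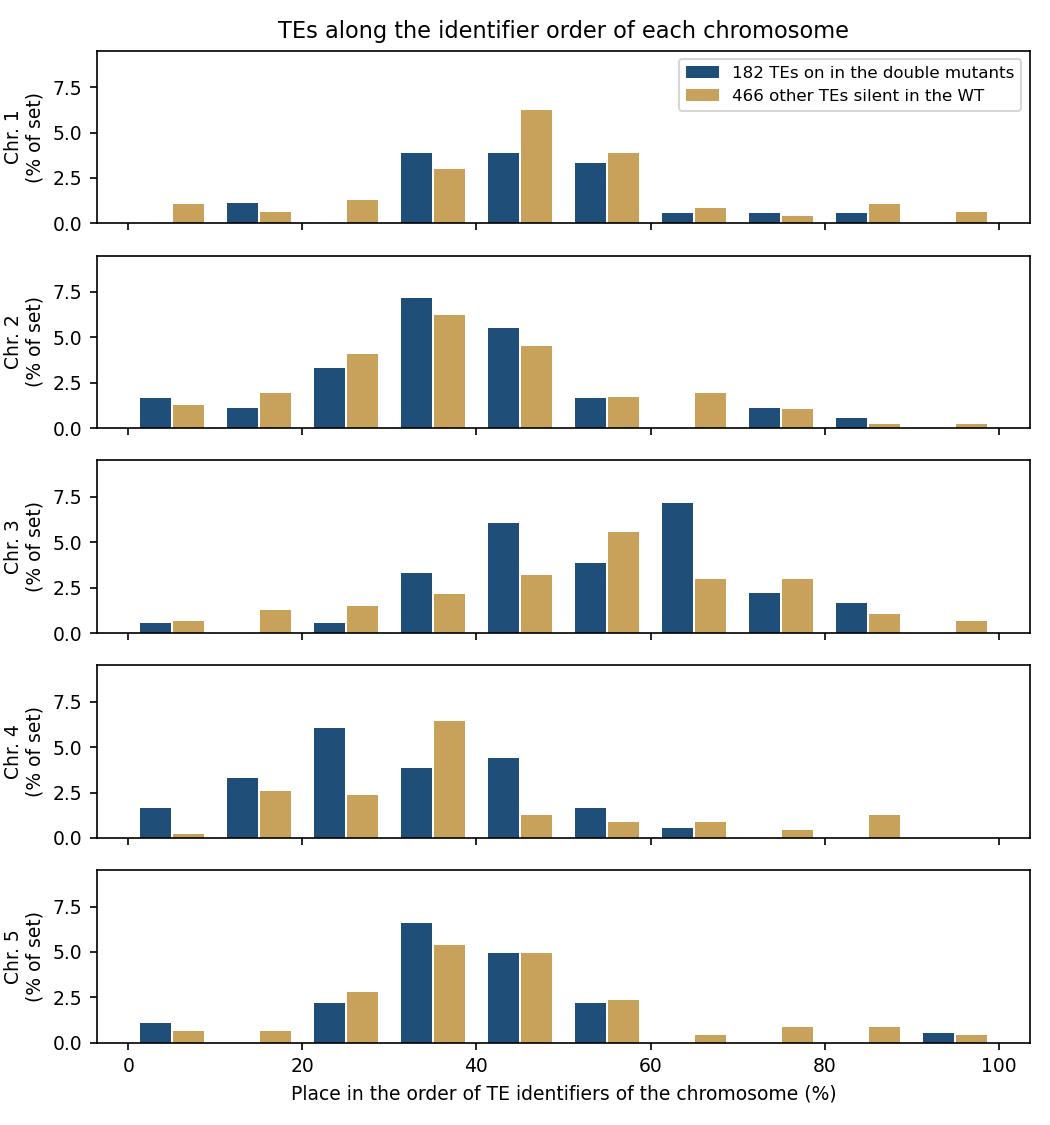
Share of the 182 TEs (blue) and of the 466 other WT-silent TEs (tan) in each of 10 equal sections of the identifier order of each chromosome, in percent of the set. Both sets peak in the inner sections of every chromosome.

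Some of the TEs were neighbours. Of the members, 23 (12.6%) had another member within 2 identifiers, in 11 runs, and 74 (15.9%) of the comparison set had another of that set as close, sets of unequal size that cannot be compared by these shares. The longest run was AT4TE20800, AT4TE20805 and AT4TE20815 on chromosome 4. By level, chromosome 5 stood highest relative to ddm1: its members reached 24.7% and 35.5% of their ddm1_2_G2 level in cdca7ab_1 and cdca7ab_2, against 13.1 to 21.3% on the other chromosomes. AT5TE43665, AT5TE43315 and AT5TE47200 are on chromosome 5.

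The plants of batch B were grown and sequenced apart from those that the rule read, and so allowed a test. The TEs were off in the WT and on in the cdca7_ab double mutant: the summed level was 10.5 to 18.8 CPM in the 5 WT plants and 927, 1008, 992.8 and 804.2 CPM in the 4 cdca7_ab plants. Of all 182, 172 had at most 3 counts in every WT plant, 122 had 4 or more in at least 2 cdca7_ab plants, and 114 (62.6%) met both, against 23 (4.94%) of the comparison set. A single member (1 of 182) had 0 counts in every cdca7_ab plant.

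For the test between genotypes 105 of the 182 passed the count filter in batch B (10 or more counts in 3 or more of 82 libraries), which a TE that is silent in the WT passes through plants in which it is on, so the counts that follow describe those 105. Between cdca7_ab and WT, edgeR called 91 higher (adjusted p at most 0.1 and at least a doubling) where 1.32% of all 17510 features were called higher, and none lower. All cdca7_ab plants were above all WT plants for 95 TEs, against 1.86% of all features. The median log2 fold change was 6.12, or 4.56 with TEs at 0 in the WT set to their bound, against -0.01 over all features. With the 2 groups alone edgeR called 80, and 66 with the same-numbered plants as pairs, and the other tool, DESeq2, called 56.

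AT4TE09845 had the smallest adjusted p. It had 1, 6, 2, 2 and 1 counts in WT and 46, 84, 104 and 34 in cdca7_ab, a log2 fold change of 4.69 (SE 0.83, edgeR adjusted p = 0.00046). AT2TE17725 had 0, 0, 0, 1 and 2 counts in WT and 67, 57, 70 and 77 in cdca7_ab, with no overlap (log2 fold change 6.54, SE 1.23, edgeR adjusted p = 0.00104). AT5TE43315 had 1 count in 1 of the 5 WT plants and 37, 414, 294 and 292 counts in cdca7_ab, a ratio of 1176 with a counting interval of 211 to 46494.

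For AT5TE43665, leading in batch A, the WT plants had 0, 1, 1, 0 and 0 counts and the cdca7_ab plants 66, 89, 120 and 111. Some TEs were at 0 in all WT plants, so that only a lower bound of the fold could be given. AT5TE44730 had 81, 104, 91 and 90 counts in cdca7_ab and was at least 138-fold higher there, taking 3 counts over the WT group as the floor. AT3TE60460 had 49, 70, 136 and 76 counts and was at least 125-fold higher. By the same floor AT2TE19485, AT5TE36940, AT3TE58895, AT3TE50940 and AT1TE52985 were at least 112, 107, 96.4, 89.6 and 84.3-fold higher, each with 17 or more counts in every cdca7_ab plant.

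A few members had like counts in both groups of batch B. AT1TE56345, which had entered at the count filter, had 2, 5, 14, 6 and 1 counts in WT and 4, 5, 6 and 12 in cdca7_ab (log2 fold change 0.11, SE 0.60). AT1TE36570 had 6, 5, 3, 2 and 13 counts in WT and 3, 4, 6 and 20 in cdca7_ab (log2 fold change 0.29, SE 0.69). Neither TE was silent in these WT plants. They were among the 14 of 105 that were not called.

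**Figure D4:**
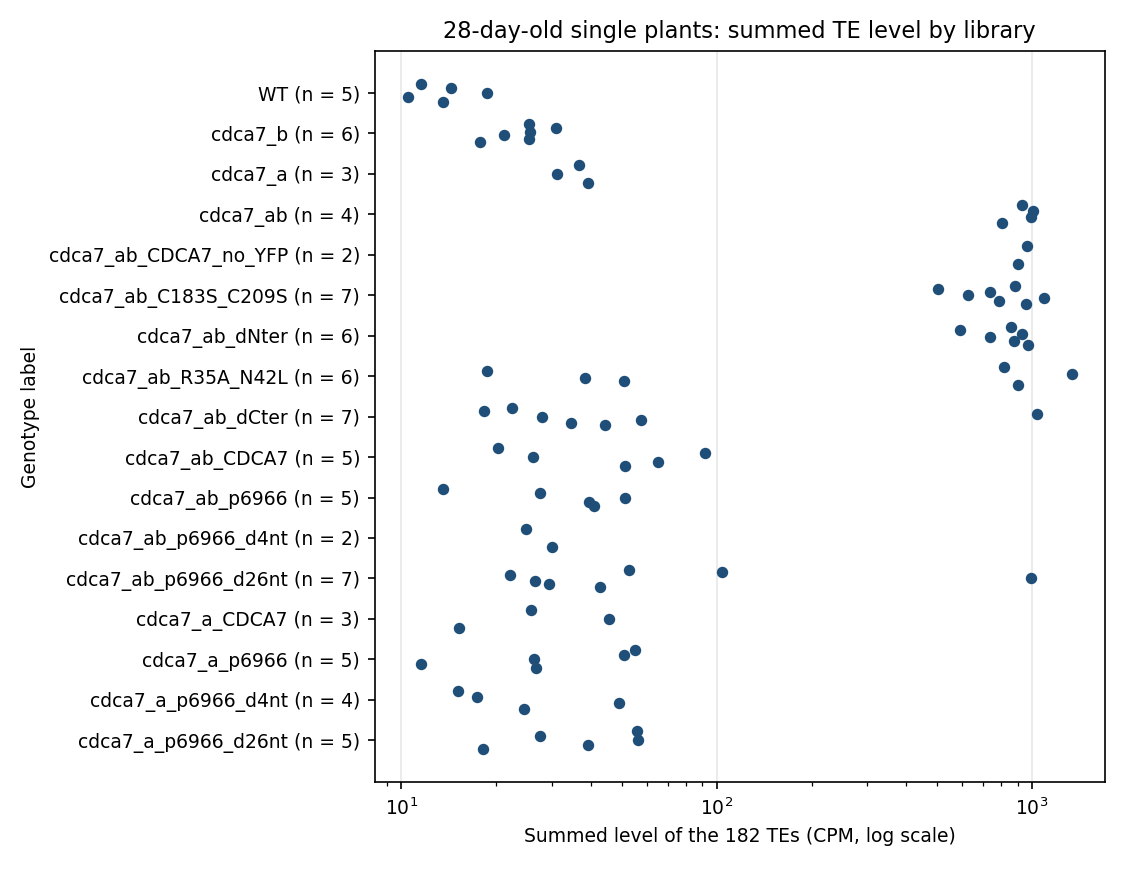
Summed level of the 182 TEs in each of the 82 single plants, 28 days old, by genotype label, in CPM on a log axis. Points are plants. The plants lie either at 502.1 CPM and above, as all cdca7_ab plants do (804.2 to 1008 CPM), or at 103.7 CPM and below, as all WT plants do (10.5 to 18.8 CPM). The groups cdca7_ab_R35A_N42L, cdca7_ab_dCter and cdca7_ab_p6966_d26nt have plants in both ranges.

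In the single mutants of batch B the TEs stayed near the WT level. The summed level was 36.6, 31.2 and 39.1 CPM in cdca7_a and 17.7 to 31.0 CPM in cdca7_b. Every cdca7_a plant was above every WT plant in this sum, and the cdca7_b plants overlapped the WT. The comparison set was ordered alike, so this was not particular to the members. It summed to 13.4 to 25.8 CPM in cdca7_a, 8.57 to 43.6 CPM in cdca7_b and 6.37 to 12.4 CPM in WT. No TE was called in either comparison by edgeR, where 0.211% of all features were called higher in cdca7_a and 0.0171% in cdca7_b. At an unadjusted p under 0.05, 4 TEs were higher in cdca7_a and 1 in cdca7_b, and DESeq2 called 0 and 1 higher, with 2 lower in cdca7_a. AT4TE09845 came closest, with 14, 21 and 40 counts in cdca7_a against 1, 6, 2, 2 and 1 in WT (log2 fold change 2.83, SE 0.90, edgeR adjusted p = 0.229), and 28, 15, 19, 5, 9 and 2 counts in cdca7_b.

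No gene of the silencing machinery passed the test beside the TEs. Of 25 listed genes, among them MET1, CMT2, CMT3, SUVH4 (a histone methyltransferase), ROS1 (a demethylase) and the RNA-directed pathway's NRPD1 and NRPE1, 21 were tested and none was called in cdca7_ab against WT or in any other comparison of these libraries. Their median log2 fold change was -0.12 in cdca7_ab against WT. The 3-prime tags of many of these genes were few, which limits what could be detected.

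With an intact CDCA7α transgene the TEs were far below the level of cdca7_ab. With the reference promoter and the full-length protein (cdca7_ab_CDCA7) the summed level was 20.3, 91.6, 26.2, 65.4 and 51.2 CPM in the 5 plants, all above the 5 WT plants (10.5 to 18.8 CPM). Sister plants without the transgene (cdca7_ab_CDCA7_no_YFP) stood at 966 and 904.7 CPM, within the range of cdca7_ab. Against cdca7_ab, edgeR called 58 of 105 TEs lower (0.925% of all features), and 91 had every transgenic plant below every cdca7_ab plant (2.31% of all features). DESeq2 called 25. The median log2 fold change was -5.69, or -3.92 at the bounds. Leaving out single plants gave 5 to 50 calls, with 38 without cdca7_ab replicate 3 and 34, 25, 5, 33 and 24 without replicates 1 to 5 of the construct.

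AT5TE42010 had 40, 53, 42 and 53 counts in cdca7_ab and 0 in all 5 cdca7_ab_CDCA7 plants, at least 47.5-fold lower. AT2TE19005 (25, 40, 40 and 53 counts in cdca7_ab) and AT4TE14295 (15, 29, 62 and 30) were also at 0 in all 5 plants. In the sister plants AT5TE42010 had 35 and 26 counts. No TE was called in the sister plants (0.0% of all features), with 1 lower at an unadjusted p under 0.05 and 0 by DESeq2.

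With the p6966 promoter, from another natural accession, the TEs were low as well. In cdca7_ab_p6966 the summed level was 13.6 to 51.2 CPM in 5 plants. In edgeR 76 TEs were called lower (1.14% of all features; 37 in DESeq2), 93 did not overlap (1.91% of all features), and the median log2 fold change was -5.41, or -4.54 at the bounds. AT2TE20940 had 56, 94, 103 and 124 counts in cdca7_ab and 0, 1, 0, 1 and 0 in cdca7_ab_p6966 (log2 fold change -7.45, SE 1.42, edgeR adjusted p = 0.00172). AT2TE17725 (0, 0, 0, 3 and 2 counts) and AT5TE42010 (0, 0, 0, 1 and 1) had adjusted p = 0.00172 and 0.00197 in edgeR.

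The construct comparisons share the cdca7_ab plants. Of the TEs called lower, 53 were common to cdca7_ab_CDCA7 and cdca7_ab_p6966, which is 91.4% of the former and 69.7% of the latter. Whether the 2 promoters differed was not tested. In the cdca7_a background the 17 construct plants stood at 11.5 to 56.3 CPM, next to 31.2 to 39.1 CPM in cdca7_a. The interaction of the p6966 construct with background called no TE in edgeR (0.0% of all features) and 3 in DESeq2, with 30 TEs lower at an unadjusted p under 0.05 and a median difference of -5.19 on the log2 scale.

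With deletions in the p6966 promoter the TEs were low in all plants but 1. The 2 cdca7_ab_p6966_d4nt plants stood at 24.8 and 30.1 CPM. No TE passed the adjusted threshold in edgeR with 2 plants (0.0% of all features), DESeq2 called 2, and 95 TEs were lower at an unadjusted p under 0.05. The groups did not overlap for 95 TEs, where 9.31% of all features were ordered that way. Fitted with only the 2 groups, edgeR called 43. In cdca7_ab_p6966_d26nt, 6 plants lay between 22.1 and 103.7 CPM and replicate 4 at 993.5 CPM. None of the TEs was called (0.00571% of all features) by edgeR or DESeq2, although 79 were lower at an unadjusted p under 0.05. Without replicate 4, 82 were called.

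The TEs were on in the plants labelled for the zinc-finger exchange and for the loss of the N terminus, and the latter had next to no reporter counts (0 to 2), so that the presence of the protein was not shown. In cdca7_ab_C183S_C209S, with exchanged cysteines of the zinc finger, the summed level was lowest at 502.1, at the median 784.5 and highest at 1094 CPM in 7 plants. In cdca7_ab_dNter, without the N terminus, it was lowest at 593.5, at the median 869 and highest at 969.2 CPM in 6 plants. Against cdca7_ab no TE was called in either (0.0% of all features each), none at an unadjusted p under 0.05, and 0 by DESeq2, with medians of -0.20 and -0.06 on the log2 scale. AT5TE43665 had 65, 27, 28, 44, 201, 31 and 146 counts in the zinc-finger plants, with a log2 fold change of -0.19 (SE 0.84), so moderate differences of single TEs were not detectable.

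Plants of cdca7_ab_dCter, without the C terminus, were mostly off. The lowest, median and highest sums of the 7 plants were 18.3, 34.6 and 1036 CPM, and replicate 3 alone was above 57.7 CPM. edgeR called 7 TEs lower (0.251% of all features) and 83 at an unadjusted p under 0.05. Without replicate 3, 88 were called. Leaving out cdca7_ab plants gave 1, 1, 0 and 25 calls without replicates 2 to 5. AT1TE47500, at 0 in all 7 plants, had 0, 0, 65 and 62 counts in cdca7_ab, so the groups touched at 0. AT4TE18470 had 6, 9, 12 and 12 counts in cdca7_ab and a single nonzero plant (3 counts) with the construct, a ratio of 21.4 (counting interval 6.8 to 108).

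The cdca7_ab_R35A_N42L plants, with exchanged residues in the protein, split. Replicates 1, 3 and 6 stood at 816.8, 1335 and 900.9 CPM, and replicates 2, 4 and 5 at 18.8, 38.2 and 50.7 CPM. AT5TE44730 had 60, 0, 104, 0, 0 and 55 counts in the 6 plants in order, and AT5TE43665 60, 0, 118, 0, 0 and 116. As a group nothing was called (0.0% of all features; 2 TEs at an unadjusted p under 0.05; 0 by DESeq2).

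The reporter attached to the transgene was counted in the same libraries. In cdca7_ab_R35A_N42L it gave 1, 0 and 0 counts in replicates 1, 3 and 6 and 11, 11 and 6 in replicates 2, 4 and 5. In cdca7_ab_dCter it gave 2 counts in replicate 3 and 4 to 62 in the others, and in cdca7_ab_p6966_d26nt 0 in replicate 4 and 2 or more in the others. The plants with the TEs on were thus those with the fewest reporter counts in these 3 groups. The zinc-finger plants went the other way, with 4 to 47 reporter counts and the TEs on, and the plants without the N terminus had 0 to 2. The 5 cdca7_ab_CDCA7 plants had only 1, 3, 44, 2 and 5 counts, so a low reporter count did not by itself mark a plant with the TEs on. Plants without any transgene also had a few reporter counts, 0 to 4 in WT, 0 to 5 in cdca7_b, 1 to 5 in cdca7_a and 0 to 2 in cdca7_ab, so counts in that range cannot tell a weak transgene from none.

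**Figure D5:**
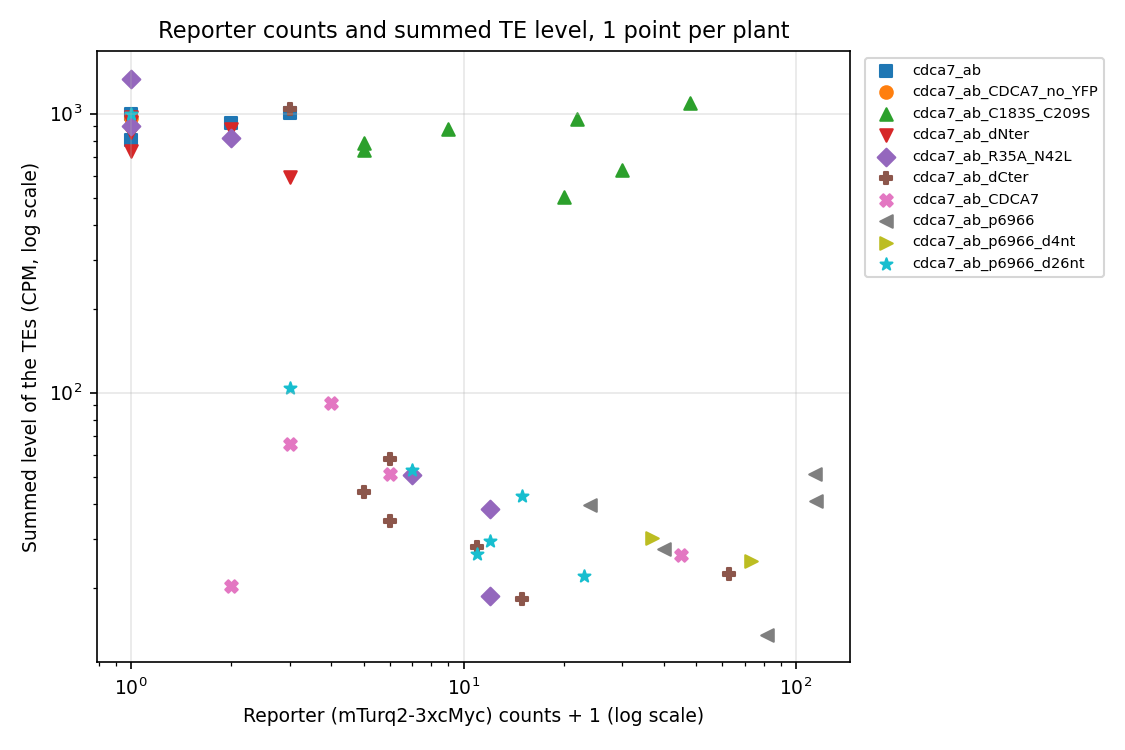
Reporter counts + 1 (x axis, log scale) and the summed level of the 182 TEs in CPM (y axis, log scale), 1 point per plant of the cdca7_ab background, by genotype label. No plant lies between 103.7 and 502.1 CPM, and the zinc-finger plants (green, up to 47 reporter counts) lie in the upper group.

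Few plants were in between. Of the 47 plants of the cdca7_ab background with a construct or as its sisters, 20 were at 53.8% or more of the cdca7_ab mean and 27 at 11.1% or less. The upper 20 comprised both sister plants, all 7 zinc-finger plants, all 6 dNter plants, 3 of 6 R35A_N42L plants, 1 of 7 dCter plants and 1 of 7 p6966_d26nt plants.

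A small number of TEs were on in plants in which the others were off. Over the 12 plants with an intact CDCA7α under the reference, p6966 or p6966_d4nt promoter, 156 TEs never reached 4 counts and 26 did so at least once, 13 of them in 1 plant only. AT4TE09845 did so in 10 plants: it had 7, 17, 5, 20 and 5 counts in cdca7_ab_CDCA7, 6, 10, 7, 11 and 16 in cdca7_ab_p6966, and 2 and 1 in cdca7_ab_p6966_d4nt. It had been among the TEs with the highest counts in the single mutants of batch A. AT4TE19655 and AT1TE36570 did so in 8 plants each and AT2TE18240 in 7. None of these was silent in all WT plants of batch B, where their highest counts were 10, 13 and 7.

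Other TEs were on in some plants and off in the rest. AT3TE51660 had 34, 62, 75 and 58 counts in cdca7_ab, and 0, 75, 0, 31 and 26 in cdca7_ab_CDCA7. It had 0 and 50 counts in cdca7_ab_p6966_d4nt and 0, 42 and 0 in cdca7_a_CDCA7, against at most 2 in WT. In each group some plants equalled the double mutant and others had nothing. AT5TE47200 had 2, 10, 0, 16 and 12 counts in cdca7_ab_CDCA7 and 35 and 4 in cdca7_ab_p6966_d4nt, with 1 count in all WT plants together.

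Within ddm1, no TE passed the test between generations or when a cdca7 allele was added, of which cdca7a_1 is the promoter insertion with CDCA7α overexpressed. The summed level was 5603 and 5944 CPM in ddm1_cdca7a_1, 5552 and 6684 CPM in F2_ddm1_cdca7a_2, and 5085 to 6527 CPM over ddm1_cdca7b_1, ddm1_cdca7ab_1 and ddm1_cdca7ab_2, against 4505 to 6356 CPM in the ddm1 mutant itself. ddm1_cdca7b_2 lay at 6008 to 6680 CPM. All 182 TEs were tested and edgeR called none in any of the 7 comparisons, although without the filter on low counts it called 2 to 21. In simulated data for ddm1_2_G5 against F2_ddm1, with these 2 groups alone, 10.4% of changes of 1 log2 unit were recovered. Of changes of 2 and 3 log2 units 74.6% and 97.0% were recovered. The absence of calls therefore does not show that levels were unchanged.

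Generation by generation, ddm1_2_G5 against F2_ddm1 gave 27 TEs above and 1 below at an unadjusted p under 0.05, with a median log2 fold change of 0.37 (0.0167% of all features called). DESeq2 called 4. The smallest adjusted p belonged to a TE that was lower: AT5TE44130 had 43 and 66 counts in F2_ddm1 and 20, 7 and 15 in ddm1_2_G5 (log2 fold change -2.35, SE 0.59, edgeR adjusted p = 0.251).

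ddm1_cdca7a_1 against ddm1_2_G2 gave 6 TEs above and 8 below by the same unadjusted threshold (median 0.15; 0.00557% of all features called; DESeq2 2). F2_ddm1_cdca7a_2 against F2_ddm1 gave 6 and 0 (median 0.27; 0.0% called; DESeq2 0). Against ddm1_2_G5, ddm1_cdca7b_1 gave 2 and 2 (median -0.03; 0.00557% called; DESeq2 0) and ddm1_cdca7b_2 3 and 9 (median 0.02; 0.0111% called; DESeq2 2). ddm1_cdca7ab_1 gave 1 and 7 (median -0.18; 0.0167% called; DESeq2 1), and ddm1_cdca7ab_2 2 and 2 (median 0.02; 0.0111% called; DESeq2 0). The last 4 comparisons share the ddm1_2_G5 libraries and set lines of generation 6 against them. The lines reached their generation by separate routes, so generation and genotype cannot be told apart.

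AT5TE43315 had the smallest adjusted p in ddm1_cdca7ab_1. It had 22, 18 and 60 counts there and 142, 128 and 162 in ddm1_2_G5, with no overlap (log2 fold change -2.18, SE 0.46, edgeR adjusted p = 0.242). It was also low in ddm1_cdca7ab_2 (59 and 65 counts) and ddm1_cdca7b_2 (57, 33 and 80), but not in ddm1_cdca7b_1 (171, 172 and 163). AT4TE19655, a TE that was higher in the double mutants than in ddm1, had 24 and 16 counts in ddm1_cdca7a_1 against 8 and 4 in ddm1_2_G2 (log2 fold change 2.15, SE 0.65, edgeR adjusted p = 0.21). Neither difference passed the adjusted threshold.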

How the data were processed

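Rosette-leaf RNA was sequenced by 3-prime tags in 121 libraries (39 pools in batch A, 82 single plants in batch B). Per the study's methods the authors collapsed reads by molecular identifiers, aligned them to TAIR10 with STAR 2.7.11a and quantified them with Salmon 1.10.1 on a transcript set joined with the TAIR10 TEs. The deposited files held estimated counts per transcript and strand, and the authors also gave the same values as a signal scaled to library totals (RPM), used here only as an alternative scale. Salmon shares reads among like copies, so values of single TEs in a repeated family are uncertain. Sense-strand estimated counts were used, summed per locus (68157 and 68159 loci) and rounded. The member rule was applied to the values as deposited.

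Features with 10 or more counts in 3 or more libraries of a batch were tested (17943 in batch A, 17510 in batch B). edgeR 4.0.16 (R 4.3.3; TMM, quasi-likelihood test) was fitted to all libraries of a batch, with Benjamini-Hochberg adjustment over all features. A call needed an adjusted p of at most 0.1 and a log2 fold change of at least 1 in size. CPM were scaled by TMM. The study's tool, DESeq2 (1.42.0 here), other scalings, no filter, the 2 groups alone, a replicate block and leaving out each library of the groups of 2 to 5 were alternatives, and so were a few libraries of larger groups, chosen after the data were seen. Folds against a group at 0 used 3 counts over the group as floor, and counting intervals are exact at 95%. Intervals and floors cover counting error only.

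Replicates were the samples that the labels number within a genotype. Pools and plants of a line may share parents, so p-values measure the spread between these samples. Same-numbered WT and cdca7_ab plants had correlations of 0.133 to 0.598 over 4 pairs, and other-numbered plants -0.393 to 0.299, ranges that overlap. A fit with the numbers as pairs was run as an alternative. No label states what a shared number means, so the pairing is an assumption. In no other comparison with 3 or more pairs were all correlations over 0.1. The fits were first tested on simulated data with known changes.

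The members, gene lists and tests were chosen with earlier results of these data known. TEs named were the 8 with the highest double-mutant level, the 8 with the largest change in cdca7_ab without overlap, the 4 at each end of the ratio to ddm1_2_G2, the 5 with the most single-mutant counts, those with the smallest adjusted p per comparison, and those at the thresholds. Others, such as AT5TE20395, AT1TE48765, AT3TE59970 and AT1TE36570, were named after their values were seen.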

Additional observations from a re-analysis of the deposited data

Results flagged for a closer look

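In groups of 4 to 10 libraries, 36 sets of values were examined for a library that stood far from the rest of its group, and 6 were found. The cut-off gives about 1 in 20 by chance for independent, normally distributed values, which these counts and sums were not shown to be. Replicate 3 of cdca7_ab_dCter and replicate 4 of cdca7_ab_p6966_d26nt were each found by both summed level and number of TEs, so the 6 are not independent.

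Plant 3 of cdca7_ab_dCter had a summed level of 1036 CPM where the other 6 plants had 18.3 to 57.7 CPM, and 117 of the TEs had 4 or more counts in it against 2 to 13 in the others. Plant 4 of cdca7_ab_p6966_d26nt had 993.5 CPM against 22.1 to 103.7 CPM, and 111 TEs with 4 or more counts against 4 to 35. The reporter gave 2 and 0 counts in these plants. Its part in the TE level was not tested.

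The reporter itself stood apart in plant 1 of cdca7_ab_dCter, with 62 counts against 2 to 14, and in plant 3 of cdca7_ab_CDCA7, with 44 counts against 1 to 5. In both plants the TEs were low (22.4 and 26.2 CPM).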

How the results depend on the processing

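With DESeq2 the TEs called in batch B numbered 56 in cdca7_ab against WT (91 in edgeR), 1 in cdca7_b, 25 in cdca7_ab_CDCA7 (58), 37 in cdca7_ab_p6966 (76), 0 in cdca7_ab_dCter (7), 2 in cdca7_ab_p6966_d4nt (0) and 3 in the interaction (0). In ddm1 they numbered 4 for ddm1_2_G5 against F2_ddm1, 2 for ddm1_cdca7a_1, 2 for ddm1_cdca7b_2 and 1 for ddm1_cdca7ab_1, all 0 in edgeR. Without the filter on low counts edgeR called 21, 7, 2, 2, 9, 4 and 3 TEs in the 7 ddm1 comparisons, in the order of the report. With only the 2 groups fitted it called 0 for cdca7_ab_dCter and 43 for cdca7_ab_p6966_d4nt. With the replicate block it called 66 in cdca7_ab against WT, 36 for cdca7_ab_CDCA7, 36 for cdca7_ab_p6966, 0 for cdca7_ab_dCter and 28 for ddm1_2_G5 against F2_ddm1, and it changed no other count. The numbers were not shown to pair the samples, and the block could not be fitted for cdca7_ab_CDCA7_no_YFP, cdca7_ab_p6966_d4nt, ddm1_cdca7a_1 and the interaction. The cause of these differences was not tested.

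Leaving out in turn each library of the groups of 2 to 5 gave 72 to 88 calls in cdca7_ab against WT, 5 to 50 for cdca7_ab_CDCA7, 53 to 70 for cdca7_ab_p6966, 0 to 88 for cdca7_ab_dCter and 0 to 82 for cdca7_ab_p6966_d26nt. The upper ends of the last 2 were reached without dCter replicate 3 and without d26nt replicate 4, the only plants of these groups left out, chosen after the data were seen. Each cdca7_ab_R35A_N42L plant was left out as well. In the other comparisons the libraries left out gave 0 to 0 calls, but for cdca7_b, cdca7_ab_C183S_C209S and cdca7_ab_dNter these were only WT or cdca7_ab plants. The rule took 99 TEs with at most 1 count in each WT library, 90 with 10 or more counts in 2 or more double-mutant libraries, 201 without the count filter and 194 on rounded counts. As a share of ddm1_2_G2, cdca7ab_1 was 23.1% and cdca7ab_2 15.4% on RPM, and cdca7ab_1 was 15.6% without AT5TE43665. Of the remaining values, 80 moved by less than the replicate spread and 52 by more. Depth limits single TEs: the median member had 35 counts over 4 libraries.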
